A study of Mus musculus with 12 samples.

Results

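The effect of JSH-23 in LPS-stimulated bone marrow-derived dendritic cells (BMDCs) was examined by comparing the 3 libraries of the group WTL + JSH23 (replicates 1 to 3) with the 3 libraries of the group WTL (replicates 4 to 6). These 6 bulk RNA-seq libraries were chosen by their sample titles from the 12 libraries analysed, and no measured value entered the choice. All cells were grown for 6 days with murine GM-CSF from the bone marrow of C57BL/6 mice that carried the CreER transgene (a Cre recombinase that tamoxifen can switch on) and an intact Ctcf gene, and the mice of the study were 8 to 12 weeks old and of both sexes. Per the study's methods, floating cells were taken and enriched for CD11c with magnetic beads. WTL cells received LPS at 100 ng/ml for 3 h. WTL + JSH23 cells received 100 µM JSH-23 for 3 h and then the same LPS treatment. The other 6 libraries, WT (replicates 4 to 6, neither agent) and WT + JSH23 (replicates 1 to 3, JSH-23 at the same dose and time without LPS), served only to show where the effect differed without LPS. Whether the groups without JSH-23 received its solvent was not stated, and whether these cultures received the tamoxifen metabolite used on Ctcf-floxed cells was not clear. The replicate numbers of the groups with and without JSH-23 did not overlap, so an effect of JSH-23, of its solvent and of the culture set cannot be told apart.

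LPS binds the receptor TLR4 on dendritic cells, and the adaptors MyD88 and TRIF then relay the signal to the NF-κB and IRF3 transcription factors. NF-κB turns on genes of cytokines such as IL-6, IL-12 and TNF, while IRF3 and NF-κB turn on the interferon β gene, whose product induces a further set of interferon-stimulated genes. JSH-23 is a small molecule known for blocking the entry of the NF-κB subunit p65 (RelA) into the nucleus. Cells under amino acid, oxidative or protein-folding stress use separate programmes, among them the integrated stress response led by the transcription factor ATF4 and the antioxidant response led by Nrf2.

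The 6 libraries held between 24665264 and 34837847 expected counts, which are read pairs assigned to genes by RSEM. Between 3.15% and 3.51% of the counts fell on the mitochondrial chromosome. The second principal component of log2 CPM (the share of a library's counts, scaled with TMM factors) held 22.6% of the variance and separated libraries with JSH-23 from those without. WTL + JSH23 replicate 3 lay further out on it than its group, at -40.28 against -29.48 and -27.48. Of the 538 genes called higher below, 61.5% had their highest value in this replicate, against 38.4% of all genes tested. Without it 482 genes were called higher and 442 lower. Transcripts of dendritic cell genes were present in all 6 libraries, with a mean of 656 CPM in WTL for Itgax, which encodes CD11c, and 125 CPM for the transcription factor gene Zbtb46. Macrophage genes were present as well, with 8876 CPM for Lyz2 and 676 CPM for Csf1r, while of 12 lymphocyte markers 1 was abundant enough to be tested. Ddx3y, a Y-linked gene, had 77.5 to 114.4 CPM and Xist 0.349 to 0.875 CPM in all 12 libraries. Y-linked RNA with little Xist is the pattern of male cells, and every library had it. In bulk samples, fewer cells of a type and less RNA per cell cannot be told apart.

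Many genes differed in RNA level between WTL + JSH23 and WTL, in both directions. A quasi-likelihood F-test of edgeR over all 12 libraries, with one mean per group and Benjamini-Hochberg adjustment over 14357 genes, called 538 genes higher (3.75% of those tested) and 467 lower (3.25%) in WTL + JSH23 with limits of 0.05 on the adjusted p and 2-fold on the change. Libraries of the 2 groups did not overlap for 517 of the genes called higher and 453 of those called lower. These genes were already selected for a difference between the groups, so the counts add no separate support. Without a fold limit 3516 genes passed as higher (24.5%) and 3478 as lower (24.2%), of which 2262 and 2403 changed by less than 1.5-fold. These shares, and 3.75% and 3.25% with the fold limit, are the background for the list counts below. More than 8-fold changes were found for 31 genes that rose and 12 that fell. Genes called higher were of low abundance, with a median of 1.77 CPM against 5.49 CPM for genes called lower and 12.5 CPM for all genes tested, and 155 of them stayed under 1 CPM in both groups. Protein-coding genes made up 447 of the genes called higher and 380 of those called lower. The balance of directions depended on scaling, because 53.5% of the called genes were higher with TMM factors and 66.9% with library totals alone, under which the median change of all genes was 0.15 on the log2 scale instead of 0.02.

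**Figure D1:**
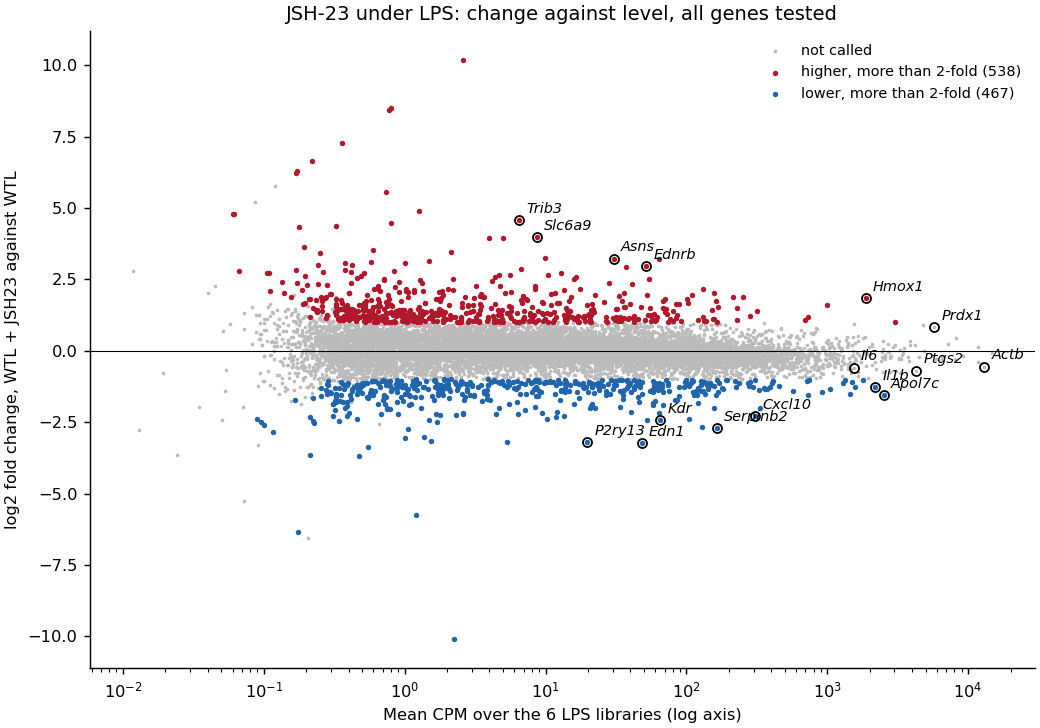
Log2 fold change between WTL + JSH23 and WTL on the vertical axis against the mean CPM over the 6 LPS libraries on the horizontal log axis, one point per gene tested. Most of the 538 genes called higher (red) lie at low levels, with a median of 1.77 CPM against 5.49 CPM for the 467 called lower (blue), and both colours also hold abundant genes, such as Hmox1 among the rises and Il1b among the falls.

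Several of the most strongly raised genes belonged to amino acid metabolism and the integrated stress response. Trib3, a pseudokinase gene induced by ATF4, had 0.659, 0.400 and 0.506 CPM in WTL and 9.92, 10.6 and 17.0 CPM in WTL + JSH23, a 23.9-fold rise (log2 fold change 4.58, SE 0.256, adjusted p = 3.44e-12). The groups were far apart, although replicate 3 was the highest. Asns, which encodes asparagine synthetase, had 5.15, 6.50 and 5.80 CPM in WTL and 46.8, 52.3 and 66.6 CPM in WTL + JSH23 (9.40-fold, log2 fold change 3.23, SE 0.125, adjusted p = 1.11e-14). Chac1, an enzyme gene of glutathione breakdown, had 0.736, 0.367 and 0.737 CPM in WTL and 7.65, 8.20 and 12.2 CPM in WTL + JSH23 (15.5-fold, log2 fold change 3.95, adjusted p = 9.68e-12). All WTL + JSH23 libraries of these genes stood above all WTL libraries, which the rule for naming the largest rises required of Trib3 and Asns. Gdf15, a stress-induced secreted factor, rose from 11.7, 12.5 and 12.9 CPM to 94.8, 92.8 and 161.4 CPM (9.36-fold, adjusted p = 3.66e-12), and its rise was 2.92 on the log2 scale without replicate 3 instead of 3.23.

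ATF4 pairs with C/EBP factors at a composite element whose core was searched here as TGATGNAA on both strands (called CARE below). Promoters of Asns, Trib3, Chac1 and Slc7a11 are shown, all of which hold a match, and that of Gdf15 is not shown. Matches were also found for genes that fell, among them Nupr1 and Il12b. Each line gives the GRCm38.p6 sequence from RefSeq, 250 bases before to 30 after the start on the gene's own strand, with each match in capitals.
Asns (chr6:7693180-7693459, minus strand): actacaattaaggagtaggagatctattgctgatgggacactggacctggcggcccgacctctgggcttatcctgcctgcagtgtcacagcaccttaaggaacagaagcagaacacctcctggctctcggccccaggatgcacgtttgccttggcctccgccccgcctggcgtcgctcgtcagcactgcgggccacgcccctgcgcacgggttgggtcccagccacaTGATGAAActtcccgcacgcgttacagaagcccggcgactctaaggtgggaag
Trib3 (chr2:152344031-152344310, minus strand): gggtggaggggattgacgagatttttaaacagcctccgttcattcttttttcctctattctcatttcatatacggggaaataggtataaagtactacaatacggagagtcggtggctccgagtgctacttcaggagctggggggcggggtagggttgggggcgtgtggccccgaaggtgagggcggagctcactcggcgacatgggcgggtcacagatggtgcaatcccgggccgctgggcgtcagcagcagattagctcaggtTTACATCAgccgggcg
Chac1 (chr2:119350992-119351271, plus strand): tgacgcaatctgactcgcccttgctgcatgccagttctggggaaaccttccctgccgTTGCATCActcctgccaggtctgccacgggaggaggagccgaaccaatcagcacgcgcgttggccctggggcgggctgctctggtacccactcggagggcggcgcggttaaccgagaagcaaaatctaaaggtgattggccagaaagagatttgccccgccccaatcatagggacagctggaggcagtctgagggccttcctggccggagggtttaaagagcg
Slc7a11 (chr3:50443584-50443863, minus strand): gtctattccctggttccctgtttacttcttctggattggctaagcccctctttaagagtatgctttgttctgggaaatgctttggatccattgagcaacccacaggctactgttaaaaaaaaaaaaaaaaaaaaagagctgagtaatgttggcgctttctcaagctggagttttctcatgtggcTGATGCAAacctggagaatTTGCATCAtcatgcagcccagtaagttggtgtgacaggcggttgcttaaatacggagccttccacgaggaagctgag
The last of these, Slc7a11, encodes the cystine transporter xCT and holds 2 matches. Slc7a11 RNA was abundant in both groups, at 2299, 2105 and 2153 CPM in WTL and 2810, 2749 and 2787 CPM in WTL + JSH23, a rise of 0.35 on the log2 scale (SE 0.0377, adjusted p = 1.04e-07). A match is only a run of letters and was not tested for binding.

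Of 19 tested members of the integrated stress response list, 15 rose and 3 fell at the adjusted p, and 8 rose by more than 2-fold, with a median log2 fold change of 0.66. Of all genes tested, 24.5% passed as higher and 24.2% as lower. The factor gene Atf4 itself had 145.9, 148.6 and 149.0 CPM in WTL and 292.2, 298.8 and 345.1 CPM in WTL + JSH23, a 2.11-fold rise (adjusted p = 2.24e-13). Ddit3, which encodes the stress factor CHOP, rose 1.58-fold from a mean of 16.0 ± 1.21 to 25.5 ± 2.73 CPM (SD, n = 3, adjusted p = 1.82e-07). The members that fell were Ndrg1 (log2 fold change -0.43), Nupr1 (-0.37) and Ppp1r15a (-0.18). Without WTL + JSH23 replicate 3 the median was 0.59, with the same counts of 15 and 3.

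Most amino acid supply genes were higher, where 24.5% of all genes tested passed as higher and 24.2% as lower. Among 15 amino acid synthesis and one-carbon genes 10 rose, none fell and 5 did not pass by edgeR at the adjusted p (median 0.54), and among 12 amino acid transporters 11 rose, none fell and 1 did not pass (median 0.67). The largest of these was Slc6a9, the glycine transporter GlyT1, at 1.12, 0.967 and 1.01 CPM in WTL and 15.5, 14.1 and 19.3 CPM in WTL + JSH23 (15.7-fold, adjusted p = 3.30e-15). The Slc6a9 locus overlaps 2 other protein-coding genes, and its counts were fractional in 10 libraries. Slc1a4, a transporter of alanine, serine and cysteine, rose from 0.765 ± 0.223 to 2.97 ± 0.309 CPM (log2 fold change 1.97). Gpt2, which makes alanine from pyruvate, rose by 1.83 and Phgdh, the entry enzyme of serine synthesis, by 1.77 on the log2 scale. Of 20 cytosolic aminoacyl-tRNA synthetases, which load amino acids on tRNA, 12 rose and 2 fell (median 0.51). Cars (log2 fold change 1.54) and Yars (1.37), the enzymes for cysteine and tyrosine, rose most, while Wars (-0.26) and Kars (-0.17), for tryptophan and lysine, fell. With library totals alone Kars was at -0.04 and did not pass.

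Genes of the antioxidant response rose as well. Of 28 tested Nrf2 targets, 22 rose and 4 fell, and 8 rose by more than 2-fold (median 0.61). Among all genes tested 24.5% passed as higher and 24.2% as lower. The falls numbered 1 with library totals alone, 2 without WTL replicate 5 and 6 with the DESeq2 Wald test, where 21 rose. Hmox1, the haem-degrading enzyme, had 812.1, 801.4 and 848.8 CPM in WTL and 2773, 2607 and 3427 CPM in WTL + JSH23, a 3.58-fold rise (SE of the log2 fold change 0.0691, adjusted p = 7.93e-15). The glutathione synthesis genes Gclc and Gclm rose 3.88-fold and 2.59-fold, and Srxn1, which repairs oxidised peroxiredoxins, had 495.3, 487.9 and 491.8 CPM against 1449, 1392 and 1697 CPM. Nfe2l2, the gene for Nrf2 itself, fell from 697 ± 6.21 to 470 ± 22.0 CPM (log2 fold change -0.57, adjusted p = 1.15e-10). In absolute terms, 3 further genes gained most. Prdx1, a peroxiredoxin, had 4231, 4117 and 4019 CPM in WTL and 7379, 7479 and 7248 CPM in WTL + JSH23. Sqstm1, the autophagy receptor p62, rose by 2939 CPM and Ftl1, ferritin light chain, by 2625 CPM on average. The elastase gene Mmp12 gained 2067 CPM (log2 fold change 1.02). Prdx1, Sqstm1 and Ftl1 had fractional counts in 11, 8 and 12 of the 12 libraries.

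Heat shock genes rose in 15 of 20 cases and fell in 2 (median 0.31), led among those above 1 CPM by Hsph1 (log2 fold change 1.14) and Hspa1a (0.94). The counts of this paragraph stand beside 24.5% higher and 24.2% lower among all genes tested. Of 7 metallothionein and zinc genes 5 rose, or 3 when WTL + JSH23 replicate 3 or WTL replicate 6 was left out, with log2 fold changes of 1.96 for Mt3, near 1 CPM, and 1.13 for the zinc exporter gene Slc30a1. Genes of the unfolded protein response, which serves folding in the endoplasmic reticulum, were less uniform. Of 24 members 17 fell and 4 rose, none of them by more than 2-fold (median -0.22), but only 10 fell and 6 rose with library totals alone, and 9 fell and 6 rose with limma on log2(TPM + 1). The chaperone gene Hspa5 (BiP) fell from 1320 ± 34.8 to 910 ± 10.6 CPM (adjusted p = 1.34e-10) and Dnajb11 by 0.47 on the log2 scale, whereas the sensor genes Ern1 (0.52) and Eif2ak3 (0.28) rose, the latter without passing when WTL + JSH23 replicate 1 (adjusted p = 0.0583) or WTL replicate 5 (0.0532) was left out. Replicate 3 of WTL + JSH23 held the highest value of its group in 22 of 28 Nrf2 targets, 14 of 20 heat shock genes and 13 of 15 amino acid synthesis genes, and without it the list medians were 0.57, 0.29 and 0.45.

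The remaining large rises were of mixed function. Samd11 had 1.98, 1.97 and 1.61 CPM in WTL and 13.8, 10.7 and 29.8 CPM in WTL + JSH23 (9.59-fold), with fractional counts in all 12 libraries and 1 overlapping protein-coding gene. Ednrb, the endothelin B receptor, had 11.7, 10.8 and 13.2 CPM against 91.6, 78.2 and 106.3 CPM (7.79-fold, adjusted p = 4.83e-15). Lhfpl2 rose 7.57-fold to 65.4 ± 14.3 CPM and Sel1l3 6.28-fold to 17.9 ± 2.59 CPM. Gde1, a glycerophosphodiesterase gene, rose 5.71-fold to 91.7 ± 22.8 CPM. Htr2a, the serotonin 2A receptor, had 4.80, 4.87 and 4.60 CPM in WTL and 23.7, 22.2 and 35.2 CPM in WTL + JSH23 (5.64-fold, adjusted p = 7.37e-12). Mid1, a microtubule-associated ubiquitin ligase gene, had 4.80, 4.20 and 5.16 CPM against 22.6, 18.7 and 43.8 CPM, with fractional counts in all 12 libraries. In Samd11 and Mid1 replicate 3 was more than 1.5-fold above the other JSH-23 libraries. The 2 groups did not overlap for any of these genes, which the rule for naming the largest rises required.

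**Figure D2:**
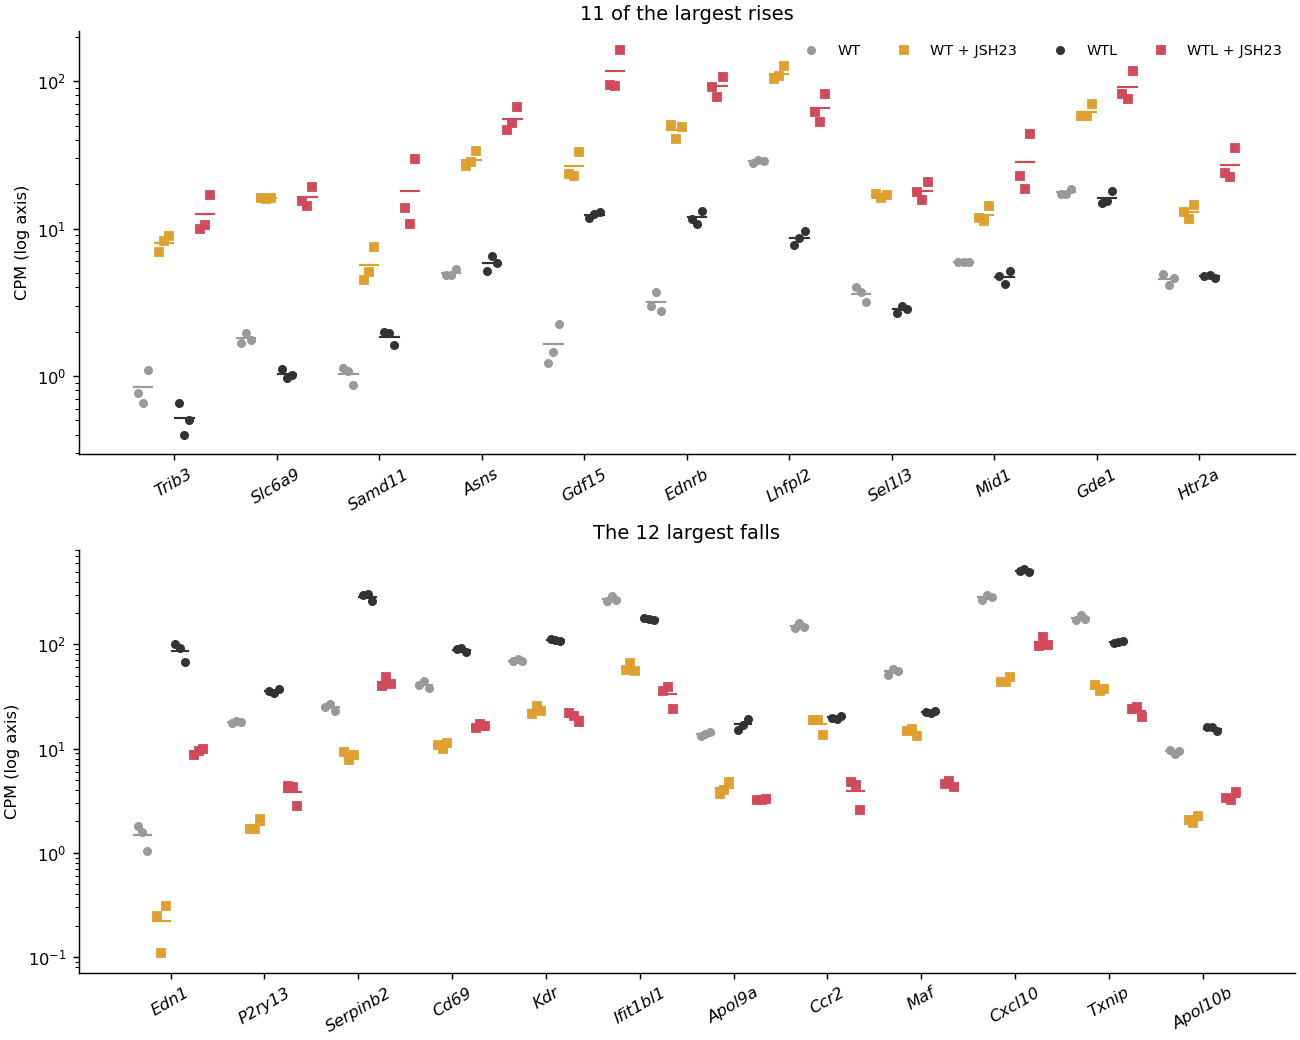
CPM on a log axis in every library of the 4 groups for 11 of the largest rises (top) and the 12 largest falls (bottom), with one marker per library and a bar at each group mean. For every gene shown, the 3 WTL + JSH23 libraries (red squares) lie apart from the 3 WTL libraries (black circles), as the rule that chose these genes required.

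Cytokine genes were on the whole lower with JSH-23, but by less than the largest changes above. Of 27 tested cytokine genes, 20 fell and 6 rose at the adjusted p, 10 and 3 of them by more than 2-fold, with a median log2 fold change of -0.63. Among all genes tested 24.2% fell and 24.5% rose at the adjusted p, so the rises were near that share. Il6 had 1944, 1857 and 1734 CPM in WTL and 1153, 1308 and 1229 CPM in WTL + JSH23, a fall of 0.59 on the log2 scale (SE 0.0662, adjusted p = 1.97e-07). Tnf went from 1988, 2009 and 2132 CPM to 1190, 1246 and 1269 CPM (1.65-fold lower, adjusted p = 4.98e-11). The groups did not overlap for either gene. The promoter of Il6 is shown because it holds 1 match to a κB-type motif, searched as GGGNNNTTC on both strands and given in capitals.
Il6 (chr5:30012864-30013143, plus strand): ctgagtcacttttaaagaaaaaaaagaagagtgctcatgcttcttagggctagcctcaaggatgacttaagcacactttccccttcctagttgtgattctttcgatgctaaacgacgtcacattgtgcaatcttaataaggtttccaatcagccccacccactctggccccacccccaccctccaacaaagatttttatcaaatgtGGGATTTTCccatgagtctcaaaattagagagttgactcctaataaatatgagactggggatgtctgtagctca

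The subunits of IL-12 differed in how far they fell. Il12a, which encodes p35, had 87.1, 89.7 and 89.4 CPM in WTL and 32.1, 37.7 and 35.4 CPM in WTL + JSH23 (2.53-fold lower, log2 fold change -1.34, SE 0.0530). Il12b, which encodes p40, had 2945, 2730 and 2412 CPM against 1581, 1720 and 1888 CPM (1.56-fold lower, log2 fold change -0.64, SE 0.0723). Il27, the partner of Ebi3 in IL-27, fell 3.49-fold from 72.0 ± 2.66 to 20.7 ± 0.984 CPM (adjusted p = 5.46e-16). The interleukin 1 genes fell strongly. Il1b went from 3210, 3230 and 2859 CPM to 1184, 1450 and 1191 CPM, and Il1a from 2336, 2205 and 1932 CPM to 743.8, 861.5 and 689.3 CPM, which were 2.43-fold and 2.82-fold falls. Ifnb1, the interferon β gene, was low everywhere, with 1.90, 1.47 and 2.07 CPM in WTL and 0.106, 0.279 and 0.259 CPM in WTL + JSH23 (log2 fold change -3.07, SE 0.378, adjusted p = 6.68e-07), where the lowest library held 3 counts.

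A minority of cytokine genes rose. Il1f9, a member of the interleukin 36 branch, had 98.2, 90.0 and 88.1 CPM in WTL and 335.9, 329.9 and 343.2 CPM in WTL + JSH23 (3.65-fold, adjusted p = 8.60e-17). Vegfa, the vascular growth factor, rose 2.90-fold to 53.9 ± 10.3 CPM. Il33 rose from 0.402 ± 0.148 to 1.21 ± 0.117 CPM (adjusted p = 0.000279), and Inhba, an activin subunit gene, from 1558 ± 130 to 2159 ± 214 CPM (log2 fold change 0.47, adjusted p = 0.00133).

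**Figure D3:**
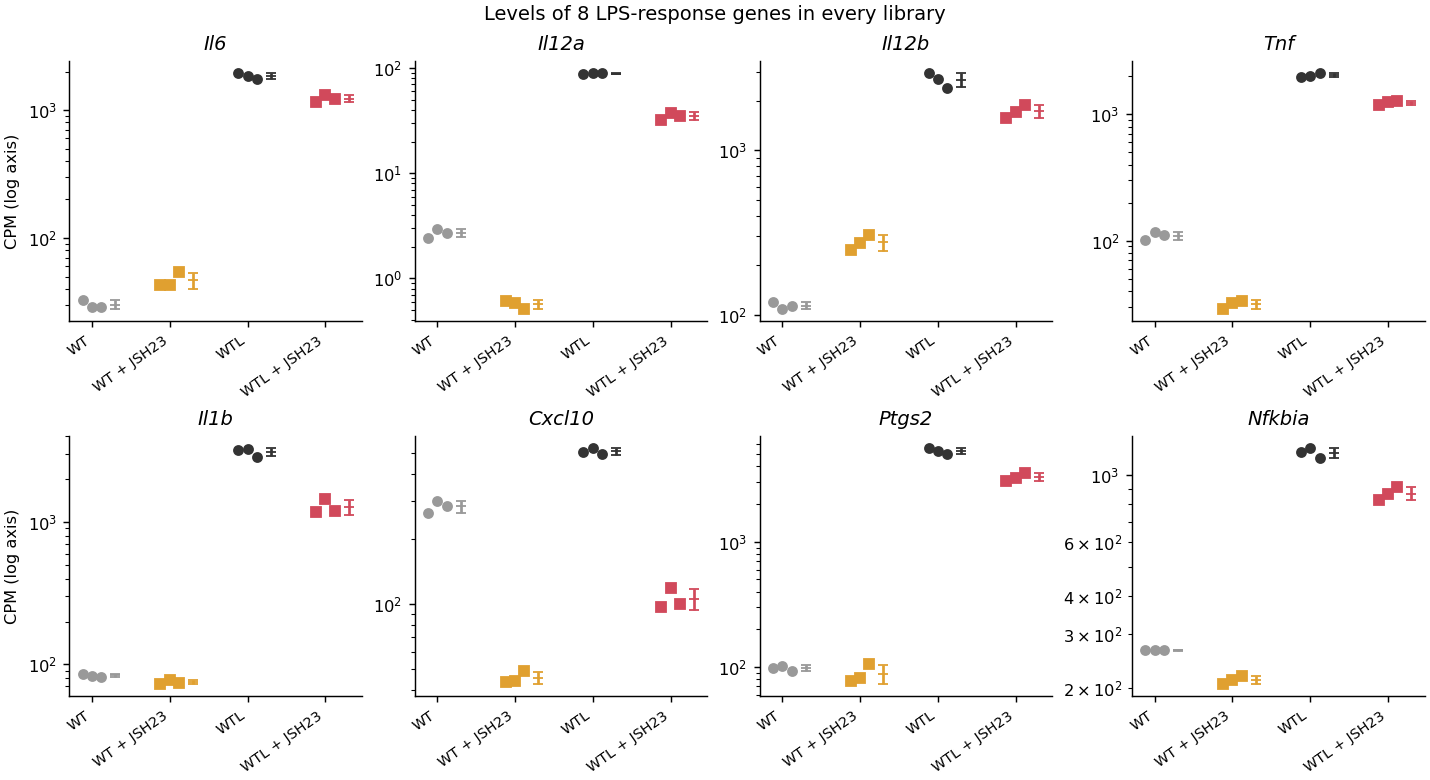
CPM on a log axis in every library of the 4 groups for 8 genes of the LPS response, with the mean ± SD of 3 libraries beside the points. Under LPS the JSH-23 libraries (red squares) lie below the WTL libraries (black circles) in every panel, while without LPS Il6 and Il12b lie higher with JSH-23.

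Chemokine genes, which encode attractants of other leukocytes, were mostly lower. Of 19 tested, 14 fell and 4 rose, beside 24.2% and 24.5% of all genes tested. By more than 2-fold 9 fell and 1 rose, and the median log2 fold change of -0.95 was the lowest of the 34 lists examined. Cxcl10, an attractant of activated T cells, had 504.3, 527.5 and 493.8 CPM in WTL and 96.9, 118.5 and 99.7 CPM in WTL + JSH23 (4.85-fold lower, log2 fold change -2.28, SE 0.0637, adjusted p = 1.33e-16). Its relative Cxcl11, annotated as a polymorphic pseudogene, went from 2.76 ± 0.407 to 0.301 ± 0.0174 CPM and Ccl12 from 2.55 ± 0.433 to 0.456 ± 0.220 CPM. Ccl4 fell 4.07-fold and Ccl3 2.71-fold, and both encode attractants of monocytes and lymphocytes. Ccl22, an abundant transcript in these cells, fell from 13460, 13350 and 13020 CPM to 10030, 10090 and 10560 CPM (log2 fold change -0.38). The members that rose included the neutrophil attractants Cxcl5 (61.6, 57.0 and 67.0 CPM against 263.0, 267.5 and 233.3 CPM, a 4.13-fold rise), Cxcl3 (log2 fold change 0.36) and Cxcl1 (0.30).

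Every tested interferon-stimulated gene passed as lower. All 35 fell at the adjusted p, against 24.2% of all genes tested, and 13 fell by more than 2-fold (median -0.79). Mx2, of an antiviral GTPase family, fell 2.95-fold from 172.2, 178.1 and 157.4 CPM to 55.7, 61.3 and 55.4 CPM (adjusted p = 9.45e-16). It is annotated as a polymorphic pseudogene and had fractional counts in 12 libraries. Ifit2, whose product binds foreign RNA, fell 2.54-fold from 1496 ± 62.8 to 589 ± 21.4 CPM. Outside this list, Ifit1bl1 fell 5.28-fold to 33.2 ± 7.99 CPM. Under every alternative that was run, 34 or 35 of the members passed as lower and the median stayed between -0.84 and -0.66. The promoter of Cxcl10 holds 2 matches to the κB-type motif and 1 to an interferon-type motif (ISRE), searched as GAAANNGAA on both strands, and the 3 matches are in capitals.
Cxcl10 (chr5:92348860-92349139, minus strand): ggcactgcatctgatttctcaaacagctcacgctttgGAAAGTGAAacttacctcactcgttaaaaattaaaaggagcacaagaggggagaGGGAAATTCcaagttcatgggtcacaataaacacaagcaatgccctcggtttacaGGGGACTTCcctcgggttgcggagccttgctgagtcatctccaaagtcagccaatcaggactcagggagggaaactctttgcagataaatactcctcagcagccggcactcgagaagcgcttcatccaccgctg

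Genes of the NF-κB system itself moved little and mostly downwards. Of 19 tested subunits, kinases and inhibitors 16 fell and 1 rose, none by more than 2-fold (median -0.31). The shares of all genes tested were 24.2% and 24.5%. Nfkbia, the inhibitor IκBα and itself an NF-κB target, had 1187, 1219 and 1134 CPM in WTL and 823.7, 866.8 and 912.1 CPM in WTL + JSH23 (log2 fold change -0.44, SE 0.0402, adjusted p = 6.85e-09). Nfkbiz and Ikbke fell most, by 0.92 and 0.91 on the log2 scale. Rela, whose product JSH-23 is known to act on, had 235.7, 245.2 and 256.4 CPM against 217.1, 218.0 and 236.5 CPM, overlapping groups with a log2 fold change of -0.13 (adjusted p = 0.0153). That change did not pass without WTL replicate 6 (adjusted p = 0.0837), WTL + JSH23 replicate 1 (0.0884) or WTL + JSH23 replicate 2 (0.0624), and it was 0.02 with limma on log2(TPM + 1). Ikbkg, which encodes the kinase regulator NEMO, was the member that rose, from 119 ± 4.36 to 226 ± 11.9 CPM (log2 fold change 0.93), with fractional counts in 11 libraries and 1 overlapping protein-coding gene.

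On the receptor side, 10 of 18 LPS receptor and adaptor genes fell and 4 rose, beside 24.2% and 24.5% of all genes tested. The rises were thus near the share of all genes. Myd88 had 261.3, 258.0 and 251.6 CPM in WTL and 123.7, 134.8 and 119.3 CPM in WTL + JSH23 (2.04-fold lower, adjusted p = 3.48e-14), and it overlaps 2 other protein-coding genes. The kinase gene Map3k8 fell by 0.91 on the log2 scale. Tlr4 rose from 16.2, 15.6 and 14.3 CPM to 28.0, 26.9 and 26.5 CPM (log2 fold change 0.82, SE 0.0692, adjusted p = 2.47e-09), and Irak1 by 0.32. Ctcf, the gene that the wider study deletes in other cells, had 56.7, 57.7 and 56.1 CPM against 56.0, 52.5 and 52.9 CPM and did not pass (log2 fold change -0.08, adjusted p = 0.159).

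The largest falls included vascular and chemotactic genes. Edn1, the endothelin 1 precursor, had 101.2, 91.6 and 67.7 CPM in WTL and 8.61, 9.43 and 9.81 CPM in WTL + JSH23 (9.41-fold lower, log2 fold change -3.23, SE 0.120, adjusted p = 6.85e-15), while the gene of its receptor Ednrb rose as given above. Serpinb2, the plasminogen activator inhibitor 2, went from 295.2, 305.1 and 259.3 CPM to 39.6, 49.1 and 41.9 CPM (6.59-fold lower). Kdr, a receptor of vascular growth factor, had 113.3, 109.7 and 107.0 CPM against 22.0, 20.7 and 18.1 CPM (5.41-fold lower). Of 16 tested genes of endothelin, fibrinolysis and coagulation, 9 fell and 5 rose, beside 24.2% and 24.5% of all genes tested. Plau, which encodes urokinase (log2 fold change 1.48), and Procr, the protein C receptor gene (1.19), were among those that rose.

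Receptor genes for nucleotides and chemoattractants fell in 19 of 28 cases and rose in 4 (17 and 8 with library totals alone), and 11 of the falls exceeded 2-fold (median -0.54). With TMM factors 24.2% of all genes tested fell and 24.5% rose. P2ry13, an ADP receptor, had 35.8, 34.3 and 37.0 CPM in WTL and 4.39, 4.30 and 2.81 CPM in WTL + JSH23 (9.20-fold lower, adjusted p = 3.73e-16), and it overlaps 1 other protein-coding gene. Cx3cr1, the fractalkine receptor, went from 9.54 ± 0.910 to 1.05 ± 0.374 CPM (9.03-fold lower) and overlaps 5 other protein-coding genes. Ccr2, the receptor for CCL2 on monocytes, fell 4.96-fold to 3.95 ± 1.18 CPM, and Gpr84, a fatty acid receptor, 3.77-fold. Cxcr4, a receptor for homing to bone marrow and lymphoid tissue, rose from 9.59 ± 1.14 to 29.6 ± 1.34 CPM (log2 fold change 1.62), and the proton sensor Gpr65 by 0.58.

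The other large falls were spread over unrelated genes. Cd69, an early activation marker, had 91.1, 92.9 and 83.7 CPM in WTL and 15.8, 17.0 and 16.4 CPM in WTL + JSH23 (5.45-fold lower, adjusted p = 4.48e-17). Txnip, an inhibitor of thioredoxin, had 103.6, 105.1 and 106.8 CPM against 24.1, 24.8 and 19.9 CPM (4.56-fold lower). The apolipoprotein L genes Apol9a and Apol10b fell 5.26-fold and 4.51-fold, and Apol7c fell from 3779, 3841 and 3691 CPM to 1308, 1339 and 1215 CPM (2.93-fold). Apol9a had fractional counts in 12 and Apol7c in 11 libraries. The transcription factor gene Maf fell 4.93-fold to 4.57 ± 0.312 CPM. In absolute terms the largest loss was that of Actb, β-actin, at 15230, 16020 and 15010 CPM in WTL and 10220, 10620 and 10740 CPM in WTL + JSH23 (log2 fold change -0.55, adjusted p = 1.32e-11), with fractional counts in 11 libraries.

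Lipid mediator genes held a further abundant loss. Ptgs2, the inducible cyclooxygenase 2, went from 5612, 5309 and 5015 CPM to 3063, 3229 and 3564 CPM (log2 fold change -0.69, SE 0.0752, adjusted p = 1.07e-07). Of the 15 prostaglandin and leukotriene genes 6 rose and 3 fell, where 24.5% of all genes tested passed as higher and 24.2% as lower. The largest fall was that of Alox5, the 5-lipoxygenase gene, from 1.97 ± 0.347 to 1.08 ± 0.563 CPM (log2 fold change -0.85, adjusted p = 0.0167), which did not pass without WTL + JSH23 replicate 3 (-0.50, adjusted p = 0.0826) or WTL replicate 5 (-0.68). Ptger2, a receptor for prostaglandin E2, rose 4.16-fold from 2.23 ± 0.264 to 9.18 ± 0.985 CPM, and Alox5ap rose by 0.68. Ch25h, which makes 25-hydroxycholesterol, had 91.7, 91.1 and 90.2 CPM in WTL and 24.3, 30.1 and 21.7 CPM in WTL + JSH23 (3.58-fold lower). The nuclear receptor gene Nr1h3 (LXRα) fell by 0.97, while its targets Scd2 and Mylip rose by 1.08 and 0.70 on the log2 scale. Of 13 LXR and oxysterol genes 3 rose and 5 fell, counts not far from those shares for so short a list. With library totals alone 4 rose and 3 fell. Of 24 cholesterol synthesis genes 8 rose, led by Mvd (0.39) and Tm7sf2 (0.38), and 6 fell, led by Fdps (-0.49) and Nsdhl (-0.41), none of them by more than 2-fold. These counts are near the shares of all genes tested (24.5% higher and 24.2% lower), and with library totals alone 12 rose and 4 fell. Of 20 glycolysis genes 6 rose and 9 fell, beside the same shares of 24.5% and 24.2%. Hk3 at 0.91 and Pgam1 at 0.39 stood at one end and Pfkl at -0.74 and Ldha at -0.53 at the other. With library totals alone 8 glycolysis genes rose and 4 fell. Among 7 genes of itaconate, nitric oxide and arginine metabolism, Odc1, the first enzyme of polyamine synthesis, rose 2.76-fold and Arg2 by 0.67 on the log2 scale, whereas Gch1 fell by 0.53 and Nos2, the inducible nitric oxide synthase, went from 307 ± 27.2 to 234 ± 25.4 CPM (adjusted p = 0.000426).

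Signal-dependent transcription factors and phosphatases moved in both directions. The counts of this paragraph stand beside 24.5% higher and 24.2% lower among all genes tested. Of 25 immediate early and AP-1 genes 14 fell and 5 rose, with log2 fold changes of -1.72 for Egr1, -1.19 for Nr4a1, 1.56 for Fosl1 and 0.86 for Jun. Of 14 MAP kinase feedback genes 6 fell and 4 rose, with -1.40 for Dusp2, -0.92 for Dusp5, 0.97 for Dusp8 and 0.63 for Dusp10. In the aryl hydrocarbon receptor pathway the receptor gene Ahr rose 2.41-fold to 75.4 ± 6.42 CPM, while its targets Cyp1b1 and Ahrr fell 2.16-fold and by 1.18 on the log2 scale. Of 18 p53 targets 5 rose, among them Plk2 (0.80) and Mdm2 (0.73), and 5 fell, among them Cdkn1a (-0.89) and Btg2 (-0.95), which is near the shares of all genes tested, and with library totals alone 9 rose and 3 fell. In the BCL2 family 5 of 14 rose, or 3 without WTL replicate 5, and 7 fell. The death-promoting gene Bid rose 3.38-fold and Bmf by 0.43, Bcl2l11 (Bim) fell by 0.84, and the survival gene Bcl2l1 (BCL-XL) by 0.69. Cell cycle and replication genes fell in 14 of 28 cases and rose in 1, E2f1 (0.68), with the largest falls in Ccnd1 (-1.22) and Ccnb2 (-1.20), and with limma on log2(TPM + 1) 7 fell and 2 rose.

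Many antigen presentation genes were slightly lower, where 24.2% of all genes tested passed as lower and 24.5% as higher. All 12 tested MHC class II presentation genes fell with TMM factors, 7 with library totals alone and 8 with limma on log2(TPM + 1). Among them were March1, a ubiquitin ligase that turns over class II molecules, at 2.27-fold lower, and H2-DMb1, a peptide exchange factor gene, at 0.71 lower on the log2 scale. Of 14 class I genes 11 fell, led by the peptide transporter gene Tap1 (-0.59) and the immunoproteasome gene Psmb10 (-0.50), and 1 rose, against 9 and 3 with limma on log2(TPM + 1). Costimulatory and checkpoint ligands fell in 8 of 14 cases, or 4 with limma on log2(TPM + 1), and rose in 2. Icosl and Icam1 fell by 0.80 and 0.65, and Cd40 went from 1841, 1851 and 1735 CPM to 1108, 1191 and 1180 CPM (adjusted p = 3.58e-11).

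Cell type markers moved alongside these groups, and their counts stand beside 24.2% lower and 24.5% higher among all genes tested. Of 11 tested dendritic cell markers 6 fell, among them Irf8 at -0.58 and Xcr1 at -0.76, and 1 rose, Clec10a at 0.57 (median -0.12). With library totals alone 4 fell and 4 rose. The dendritic cell markers Cd209a, Cd207 and Siglech were too low to be tested. Of 14 macrophage markers 11 fell and 2 rose (median -0.68), and their summed level was between 12010 and 12280 CPM in WTL and between 9452 and 9548 CPM in WTL + JSH23. Fcgr1 fell 2.64-fold, while Cd68 (0.52) and Mrc1 (0.32) rose. Of 11 neutrophil markers 10 fell and none rose, with summed levels of 439.3 to 449.5 CPM against 288.3 to 314.6 CPM. These included Lcn2 (-1.04), which LPS itself induces, and the defining granule gene Mpo, at 1.66 ± 0.148 and 0.675 ± 0.0696 CPM. The neutrophil markers Ly6g, Elane, Retnlg and Cxcr2 were too low to be tested. Among 3 tested mast cell and basophil markers Kit fell by 0.44. The part of a change in cell composition in the other results was not tested.

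**Figure D4:**
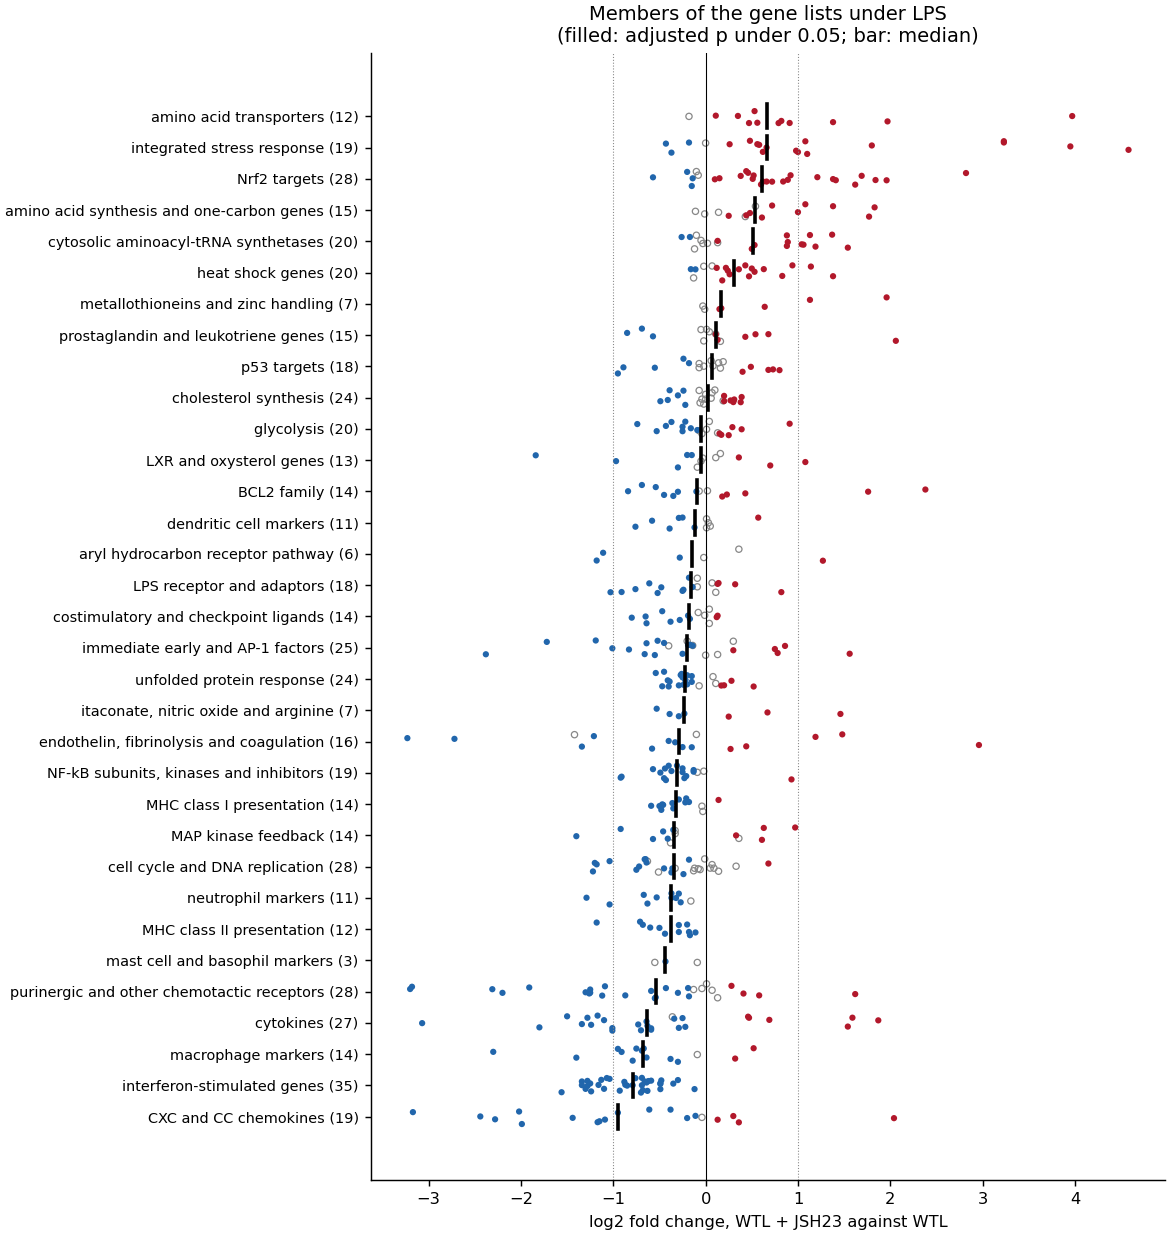
Log2 fold change between WTL + JSH23 and WTL for every tested member of 33 gene lists with at least 3 tested members (number in brackets), with filled points for an adjusted p under 0.05 and a bar at each list's median. Lists of amino acid, stress and Nrf2 genes sit to the right of 0, and interferon-stimulated genes and chemokines sit furthest to the left.

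Part of the change was also present without LPS. In the comparison of WT + JSH23 with WT, which shares no library with the one above, 349 genes were higher (2.43% of those tested) and 422 lower (2.94%) by more than 2-fold. Of the 538 genes called higher under LPS, 225 were also called higher without it by more than 2-fold, and of the 467 called lower, 230 were also called lower. At the adjusted p without a fold limit, 380 of the 538 were also higher without LPS and 5 were lower. Of the 467, 355 were lower and 3 higher. The log2 fold changes of the 2 comparisons correlated across all genes tested, with r = 0.617 (Pearson) and rho = 0.625 (Spearman), where genes are not replicates. Hmox1, with 780.1, 802.4 and 766.4 CPM in WT and 2664, 2469 and 2780 CPM in WT + JSH23, and P2ry13, with 17.8, 18.3 and 17.9 CPM against 1.69, 1.70 and 2.11 CPM, had similar log2 fold changes without and with LPS (1.75 and 1.84 for Hmox1, -3.30 and -3.20 for P2ry13), and their differences did not pass (adjusted p = 0.595 and 0.765). Interferon-stimulated genes had a median of -0.65 without LPS and -0.79 with it, yet the test of the difference described below passed for 28 of the 35. Nrf2 targets had medians of 0.64 and 0.61, and the difference passed for 8 of 28. Over all genes tested the difference passed for 18.0%.

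The median log2 fold change of the cytokine genes was -0.63 under LPS and -0.09 without it. Whether the JSH-23 effect differed was tested as the difference of the 2 log2 fold changes, and 2582 genes (18.0%) passed at an adjusted p under 0.05. Of these, 1145 changed in the same direction and more under LPS, 398 in the same direction and less, and 1039 in opposite directions, of which 223 passed in both. Il12b had 119.6, 108.6 and 112.5 CPM in WT and 246.0, 273.1 and 306.1 CPM in WT + JSH23, a rise of 1.28 without LPS against the fall of 0.64 with it (difference -1.92, adjusted p = 1.49e-10). Il6 had 32.9, 28.7 and 29.0 CPM against 42.8, 42.8 and 54.6 CPM, a rise of 0.63 without LPS (difference -1.21, adjusted p = 1.63e-07). Tnf went the other way, since its fall was larger without LPS, from 101.7, 116.5 and 110.3 CPM to 28.7, 31.8 and 33.3 CPM (log2 fold change -1.81, difference 1.08, adjusted p = 8.09e-09). Il1b did not pass without LPS (log2 fold change -0.16, adjusted p = 0.0664) and fell under LPS (difference -1.12, adjusted p = 5.80e-08). Cxcl3 rose by 1.65 without LPS and by 0.36 with it (difference -1.29, adjusted p = 7.16e-11).

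Several genes of other groups also differed between the settings. Serpinb2 fell by 1.54 without LPS and by 2.72 with it (difference -1.18, adjusted p = 1.66e-06). Plau, at 19.0, 22.9 and 21.2 CPM in WT and 24.8, 21.7 and 26.4 CPM in WT + JSH23, did not pass without LPS (log2 fold change 0.21, difference 1.27, adjusted p = 3.93e-06). Tlr4 fell by 0.17 without LPS and rose under it (difference 0.99, adjusted p = 2.52e-07), so that WTL + JSH23 stood between WTL and WT, which had 40.2, 43.1 and 37.1 CPM. Cyp1b1 fell by 3.07 without LPS and by 1.11 with it (difference 1.96, adjusted p = 1.65e-07). Among the integrated stress response genes, the difference passed for 7 of 19, beside 18.0% of all genes tested. The rise of Trib3 was larger under LPS (difference 1.31, adjusted p = 0.0403). Leaving out 1 library at a time, however, took this difference over the threshold in 6 of 12 fits. Its highest adjusted p was 0.148, without WTL replicate 5. Chac1 did not pass for the difference (adjusted p = 0.717). Gdf15 did not pass either (difference -0.80, adjusted p = 0.169), but without WTL + JSH23 replicate 3 it did (difference -1.11, adjusted p = 0.000928).

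**Figure D5:**
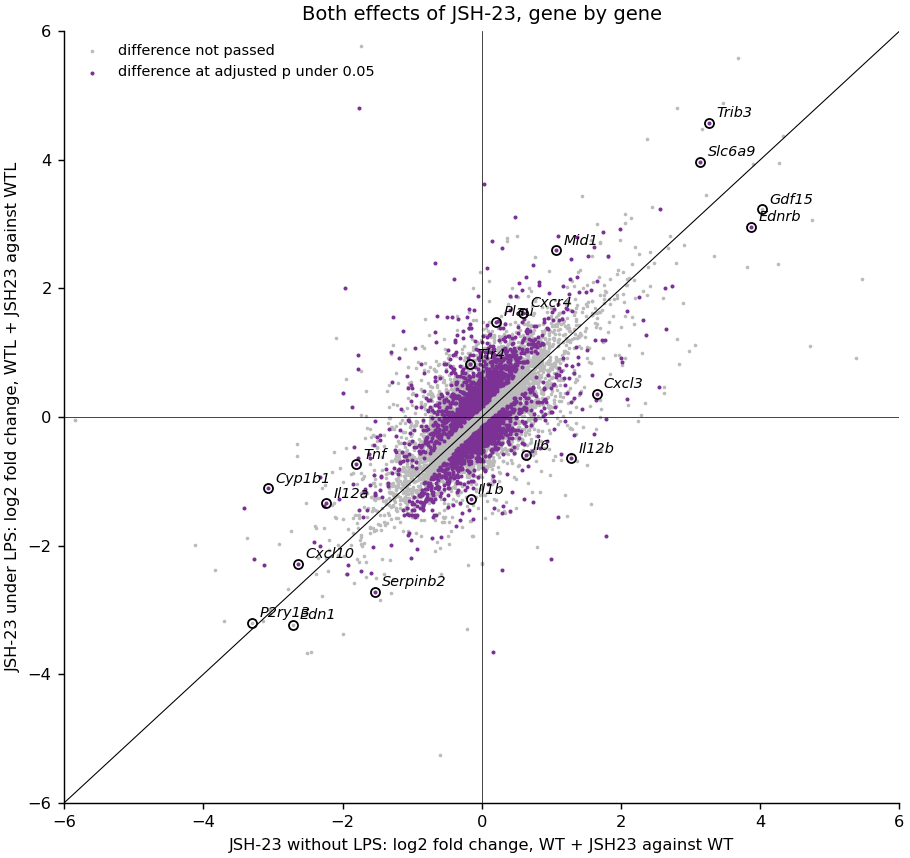
Log2 fold change with JSH-23 under LPS (vertical axis) against that without LPS (horizontal axis), one point per gene, with genes whose difference passed an adjusted p of 0.05 in purple and a line where both are equal. Il6 and Il12b lie to the right of 0 and below it, Tnf and Cyp1b1 lie above the line on the left, and 15 genes lie outside the axes.

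Promoter motifs were counted in RefSeq promoters of GRCm38.p6, 250 bases before to 50 after the start, for the 10222 tested genes that had one. The CARE letters were found in 4.66% of 365 promoters of genes called higher, 3.67% of 300 of genes called lower and 2.33% of all. They were present in 5 of 12 promoters of aminoacyl-tRNA synthetases and 5 of 15 of the integrated stress response list. The ISRE letters were found in 23.0% of promoters of genes called lower, 4.66% of those called higher and 7.40% of all, and in 19 of 28 promoters of the interferon-stimulated list. The κB-type letters were found in 16.7%, 17.3% and 15.4%, in the same order, and in 7 of 11 chemokine and 8 of 20 cytokine promoters. An antioxidant-type motif (TGACNNNGC) was found in 39 of 300 promoters of genes called lower, 60 of 365 of those called higher and 14.7% of all, and in 7 of 22 promoters of Nrf2 targets. A cyclic AMP-type motif (TGACGTCA) was found in 1.67%, 2.19% and 3.22%. Each motif was searched on both strands and counted by itself, so matches that overlapped counted for each motif. These shares are descriptions of letters in a window and were not tested, and 2055 genes had more than 1 listed promoter.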

How the data were processed

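Bulk RNA-seq was analysed from 12 mouse BMDC libraries in 4 groups of 3, which the study describes as biological replicates. The authors trimmed reads with Trim Galore, aligned them to mm10 with STAR (2.6.0c, per the submitters' processing notes) and deposited RSEM gene tables that hold an expected count and a TPM value per gene and library. The deposited TPM values were used only as an alternative. The annotation release is not given in the sources used here, and the labels name ribosomal RNA depletion while the study's methods name a polyA stranded kit. Ensembl identifiers were matched to gene symbols, 55154 of 55335 without the version number.

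Expected counts were rounded, filtered with filterByExpr (14357 genes kept) and scaled by TMM. The edgeR 4.0.16 quasi-likelihood F-test in R 4.3.3 was run over all 12 libraries with 1 mean per group, 8 residual degrees of freedom and Benjamini-Hochberg adjustment. Calls needed both an adjusted p below 0.05 and more than a 2-fold change. CPM values are scaled by TMM, and their errors are SDs over 3 libraries. RSEM splits reads shared between genes, so fractional counts mark genes with shared reads. Totals of 24664724 to 34837847 set the precision per library. Alternatives used DESeq2 1.42.0, limma 3.58.1, other scalings and filters, and each library left out. The script was tested on simulated data.

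The members and gene lists were chosen with earlier results of these data known. Genes were named as the 12 largest rises and 12 largest falls among protein-coding genes past the limits with at least 10 CPM. These also needed more than 3 counts in every library of the 2 groups and no overlap between the groups. Named as well were the 2 largest rises and falls of each list among members with at least 1 CPM and the 5 largest gains and losses in CPM. Il6, Il12a, Il12b, Tnf, Nfkbia, Rela and Ctcf were always named. A further 14 (Atf4, Ddit3, Vegfa, Slc7a11, Srxn1, Gclm, Il1a, Inhba, Ccl4, Ccl3, Cxcl1, Gpr84, Cd40 and Procr), and a few list members and markers given to account for a list or check a label, were chosen after their values were seen. 1 gene picked by the rule is not reported here.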

Additional observations from a re-analysis of the deposited data

Results flagged for a closer look

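The effect of JSH-23 under LPS differed from that without LPS for 2582 genes (18.0% of those tested) by edgeR's test of the difference at an adjusted p under 0.05. Of the 157 genes named by rule or singled out, 81 passed this test, 33 with a positive and 48 with a negative difference. Most of the 157 were chosen by their change under LPS, which is part of the difference. Their pass rate and directions therefore cannot be compared with those of all genes. The value in brackets is the log2 fold change under LPS minus that without LPS. Log2 fold changes were positive in both settings and larger under LPS for Mid1 (1.52), Slc1a4 (1.40), Trib3 (1.31), Plau (1.27), Cxcr4 (1.03), Htr2a (0.98), Lhfpl2 (0.94), Slc6a9 (0.83), Yars (0.72), Gde1 (0.70), Slc30a1 (0.69), Asns (0.68), Bid (0.67), Scd2 (0.62), Cars (0.59), E2f1 (0.57), Hk3 (0.44), Ern1 (0.39), Mrc1 (0.30), Hsph1 (0.25) and Mvd (0.24). They were positive in both and smaller under LPS for Inhba (-2.07), Cxcl3 (-1.29), Cxcl1 (-1.03), Ednrb (-0.91), Cxcl5 (-0.68), Tnfsf4 (-0.50), Plk2 (-0.49), Hspa1a (-0.44), Procr (-0.43), Slc7a11 (-0.40), Il1f9 (-0.39) and Sqstm1 (-0.25). They were negative in both and further from 0 under LPS for Il1a (-1.20), Serpinb2 (-1.18), Il1b (-1.12), Dusp2 (-0.92), Mx2 (-0.86), Kdr (-0.85), Ch25h (-0.78), Lcn2 (-0.78), Ccl3 (-0.73), Apol9a (-0.66), Dusp5 (-0.62), Bcl2l1 (-0.62), Ptgs2 (-0.54), Cd69 (-0.51), Bcl2l11 (-0.50), Ifit2 (-0.49), Cdkn1a (-0.46), Ccl4 (-0.45), Btg2 (-0.43), Maf (-0.38), Hspa5 (-0.38), Fdps (-0.35), Dnajb11 (-0.33), Tap1 (-0.32), Map3k8 (-0.30), Ccl22 (-0.28), Cd40 (-0.27), Actb (-0.22), Irf8 (-0.21) and Myd88 (-0.20). They were negative in both and nearer to 0 under LPS for Cyp1b1 (1.96), Tnf (1.08), Il12a (0.90), Ccr2 (0.82), Kit (0.46), Cxcl10 (0.36), Ahrr (0.36), Ccnd1 (0.31) and Apol7c (0.16). Directions were opposite, and both changes passed, for Il12b (-1.92), Il6 (-1.21), Tlr4 (0.99), Nos2 (-0.76), Gpr65 (0.76) and Dnaja1 (-0.35). Directions were opposite, with only 1 of the 2 changes past the threshold, for Bmf (0.54), Ndrg1 (-0.50) and Nupr1 (-0.41). The difference passed in every fit that left out 1 library for 63 of the 81 genes and was lost in at least 1 such fit for 18, among them Trib3 (highest adjusted p = 0.148 without WTL replicate 5), Asns (0.0717) and Slc6a9 (0.0539).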

How the results depend on the processing

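The number of genes past both limits depended most on the fold limit and on how low counts were treated. With a 1.5-fold limit 1254 genes were higher and 1075 lower under LPS, and 748 and 993 without LPS. With limma on log2(TPM + 1), whose pseudocount shrinks the changes of low genes by construction, 236 were higher and 168 lower under LPS, and 139 and 179 without LPS. Testing only genes with a mean of at least 1 CPM left 355 higher under LPS and 223 without LPS. A 2-fold limit on the difference of the effects left 192 genes. Leaving out 1 library at a time gave 482 to 557 genes higher and 442 to 518 lower under LPS, 6191 to 6973 at the adjusted p alone, 315 to 362 higher and 388 to 445 lower without LPS, and 1880 to 2838 for the difference. Of 157 named genes, 142 kept their direction and side of the threshold under every alternative run. Changes reversed for Hspa4 (0.02 with library totals alone), Rela (0.02 with TPM) and Ctcf (0.05 with library totals alone and 0.07 with TPM), all small changes, and the cause was not tested. With library totals alone the medians of the BCL2 family, LXR, glycolysis and dendritic cell marker lists changed sign. Same-numbered libraries with and without LPS deviated together weakly (r from 0.014 to 0.061), against -0.056 to 0.035 for libraries of unlike numbers. The main test did not pair them, and whether the numbers mark shared cultures was not tested. The groups with and without JSH-23 share no replicate number, so a fixed replicate block could be fitted only for the difference of the effects, where it gave 2968 genes, and limma voom with a random replicate block gave 2902. That random replicate block gave 546 genes higher and 477 lower under LPS. WT + JSH23 replicate 1 did not correlate best with its own number (0.014 against 0.035 with replicate 2). Low depth limits what can be said of the 155 higher and 83 lower genes that stayed under 1 CPM in both groups.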
